A study of Mus musculus with 9 samples.

Results

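Patrolling monocytes were compared with conventional (classical) monocytes in 6 RNA sequencing libraries, 3 of each subset, out of 9 in the series. All genes of the deposited table with enough counts were taken, which were 14059 of 46517, and the subsets were described beyond the marker genes that usually define them. The cells were primary monocytes from wild-type (labelled wt) C57BL/6 mice kept in vitro, with no treatment, dose or animal age in the labels. The conventional subset is written cMo and the patrolling subset pMo, each with libraries 0, 1 and 2. The third subset, intermediate monocytes (intMo, 3 libraries), shared the estimate of spread and the principal components, and is otherwise given only as a mean beside some genes. The series title places in vitro patrolling cells in bone marrow cultures on OP9-DLL1 feeders, mouse stromal cells made to display Delta-like 1, a ligand of Notch, so stromal RNA could be in the samples. How the cells were sorted was not given in these sources. Nothing in the labels says that libraries came from separate cultures or animals, so every p-value measures only the spread between these libraries, which may be technical.

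Conventional monocytes leave the bone marrow, enter inflamed tissue and can become macrophages or dendritic cells. Patrolling monocytes arise from them, depend on the nuclear receptor Nr4a1, crawl along the inner wall of small vessels and take up debris there. They are known as non-dividing cells with high levels of CD11c and angiotensin-converting enzyme and little Ly6C at the surface.

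The 6 libraries held 23725604 to 29985684 estimated counts. CPM below stands for counts scaled to library size with TMM factors. The first principal component of log2 CPM over all 9 libraries (57.8% of their variance) separated cMo from pMo, with scores of -102.8 to -79.1 in cMo and 44.2 to 66.1 in pMo. It did not separate pMo from intMo, whose libraries 0, 1 and 2 scored 67.4, 18.9 and 26.5. Library 0 stood apart from libraries 1 and 2 in each subset. The median chi-square per gene between 2 libraries measures disagreement relative to counting noise, which it includes, and can grow with counts. This median was 7.76 and 9.49 for pMo 0 against pMo 1 and pMo 2 but 1.56 for pMo 1 against pMo 2. In cMo the same values were 15.3, 18.8 and 6.25. Libraries pMo 1 and pMo 2 were thus the closest pair within a subset, yet still differed by more than sampling noise, and were counted as 2 libraries. Values from libraries 1 and 2 alone are given beside a result where they change a call, a direction or a printed count or median by over 1.5 times, and for single genes in which a library 0 lay far off.

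Ace (ENSMUSG00000020681.13, chr11:105967945-105989964 in GRCm38, protein coding), the angiotensin-converting enzyme gene, had 0.972, 1.301 and 0.324 CPM in cMo and 2143, 1002 and 936 CPM in pMo (log2 fold change 10.61 ± 0.65, SE, edgeR adjusted p = 1.37e-05). The lowest pMo library lay far above the highest cMo library, and the intMo mean of 51.96 CPM lay between them. Itgax (chr7:128129547-128150657, GRCm38), which encodes the integrin subunit CD11c, had 28.3, 24.4 and 18.04 CPM in cMo and 2029.7, 1574 and 1578 CPM in pMo (log2 6.19 ± 0.25, edgeR adjusted p = 1.61e-06). Nr4a1 (chr15:101254269-101274795, GRCm38), the nuclear receptor that patrolling monocytes require, had 233, 260.5 and 201 CPM in cMo and 5083, 4339.6 and 4047 CPM in pMo (log2 4.28 ± 0.20, edgeR adjusted p = 3.05e-06). The pMo libraries were high and the cMo libraries low for all 3 genes, without overlap. Treml4 (chr17:48264295-48275360, GRCm38), a receptor that binds dying cells, had 13.9, 19.6 and 21.2 CPM in cMo and 387, 461 and 455 CPM in pMo (log2 4.57 ± 0.20, edgeR adjusted p = 2.17e-06). Ly6c2 (chr15:75108158-75111970, GRCm38), which encodes the Ly6C glycoprotein of conventional monocytes, had 1038, 1129.5 and 1401 CPM in cMo and 8.71, 75.5 and 75.3 CPM in pMo (log2 -4.48 ± 0.97, edgeR adjusted p = 0.00772). Ly6c2 was low in every pMo library, and pMo 0 lay below the other two; its close paralogs make the division of its reads uncertain.

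Among 18 patrolling monocyte genes 17 rose (94.4%, against 17.2% of all genes tested), and Pglyrp1 was not called (log2 1.47). With libraries 1 and 2 alone all 18 rose. Among 12 conventional monocyte genes 9 fell (75.0%, against 15.9% of all genes tested), Sirpb1a rose (log2 2.14), and Hp and Plac8 were not called. Plac8, the most abundant of these 12, had 952, 920.3 and 1198 CPM in cMo and 1118, 2834 and 2569 CPM in pMo (log2 1.09 ± 0.58, edgeR adjusted p = 0.183), so its subsets overlapped. Without both libraries 0 Plac8 was called higher in pMo, against its place in the list (log2 1.36, edgeR adjusted p = 0.000452), and 10 members fell and 2 rose. Plac8 was also called without intMo 0 alone. The 5 marker genes above thus matched the labels in each of the 6 libraries. Values are in the order of libraries 0, 1 and 2. Genes given with the CPM of each library follow a rule stated with the processing, except in the account of genes with 0 counts in a subset, and all other genes were chosen as examples after their values were seen.

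Markers of other cells differed in this. Sums of stromal, macrophage, and mast cell, basophil and eosinophil markers separated the subsets. Sums of granulocyte and progenitor, dendritic cell, lymphoid, and erythroid and megakaryocyte markers overlapped. Over all genes tested 17.2% were called higher in pMo and 15.9% lower, which the share of each list stands against. The summed CPM of 20 tested stromal genes (22 listed) was 33.6, 24.9 and 22.5 in cMo and 621, 404 and 335 in pMo. Of these genes 17 rose (85.0%), 1 fell (5.0%) and 2 were not called. Cxcl12, the chemokine of marrow stroma and the most abundant of them, had 3.63, 2.602 and 2.196 CPM in cMo and 86.03, 87.6 and 63.6 CPM in pMo (log2 4.81 ± 0.34, edgeR adjusted p = 2.86e-05). All 3 pMo libraries were high for Cxcl12, and Dll1, the Notch ligand of the feeder line, rose too (log2 4.34). For Cxcl12 the intMo mean was 93.9 CPM, above the pMo mean of 79.1 CPM. The stromal genes Dcn and Lum had at most 1 count in any library. The 18 genes of granulocytes and progenitors summed to 13530 CPM in cMo 0 and to 2480 and 2796 CPM in the other cMo libraries, against 655, 2758 and 2820 CPM in pMo. Of these 7 fell (38.9%) and 11 were not called, but with libraries 1 and 2 alone 8 rose and 8 fell. S100a9, a neutrophil calcium-binding protein and the most abundant member, was not called at 2618, 397 and 495 CPM in cMo and 128, 756 and 798 CPM in pMo (log2 -1.06 ± 1.03, edgeR adjusted p = 0.463). Its order was set by libraries 0, since cMo 0 was highest and pMo 0 lowest of the 6, and without both libraries 0 it was called higher in pMo (log2 0.81, edgeR adjusted p = 0.00224).

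The macrophage list summed to 325, 611 and 679 CPM in cMo and 1569, 1224 and 1233 CPM in pMo. Of 11 tested genes (13 listed) 7 rose (63.6%) and 4 fell (36.4%). Adgre1, the F4/80 receptor, had 143, 349 and 406 CPM in cMo and 779.7, 605 and 605 CPM in pMo (log2 1.15 ± 0.34, edgeR adjusted p = 0.0294), a call lost without any 1 pMo library (adjusted p up to 0.0864). Its intMo mean of 964 CPM lay above every pMo library. The sums of 12 tested dendritic cell genes (13 listed) overlapped, at 213 to 342 CPM in cMo and 248 to 389 CPM in pMo. Fscn1 (log2 4.79), Ccr7 (log2 4.31) and Zbtb46 (log2 3.71) were among the 5 that rose (41.7%). Mgl2 was among the 2 that fell (16.7%, near the 15.9% of all genes). Cd24a, the most abundant of the 12, was not called at 249.5, 66.7 and 79.7 CPM in cMo and 49.2, 78.3 and 82.2 CPM in pMo (log2 -0.92 ± 0.56, edgeR adjusted p = 0.244, and log2 0.14 with libraries 1 and 2 alone). Lymphoid genes summed to 27.7 to 44.2 CPM in cMo and 33.5 to 66.3 CPM in pMo. Of 13 tested (19 listed) 6 rose (46.2%) and 1 fell (7.7%, or 3 genes with libraries 1 and 2 alone). Cd79b, a B cell receptor chain and the most abundant of these, was not called at 19.97, 15.4 and 18.1 CPM in cMo and 33.8, 19.2 and 19.5 CPM in pMo (log2 0.44 ± 0.31, edgeR adjusted p = 0.302). The T cell gene Cd3e had 0 counts in cMo. Erythroid and megakaryocyte genes summed to 11.9 to 47.8 CPM in cMo and 5.07 to 18.3 CPM in pMo with none of 4 tested (12 listed) called. Mast cell, basophil and eosinophil genes summed to 11.1 to 25.0 CPM in cMo and 3.45 to 5.51 CPM in pMo, with 2 of 6 tested (11 listed) that fell (33.3%). Pf4, a platelet chemokine and the most abundant of the first list, was not called at 10.3, 34.9 and 45.97 CPM in cMo and 14.5, 3.71 and 2.32 CPM in pMo (log2 -2.15 ± 0.81, edgeR adjusted p = 0.0715). It was called lower without both libraries 0 (log2 -3.72, edgeR adjusted p = 1.27e-05), without pMo 0 or cMo 0 (adjusted p = 0.0218 and 0.0477) and by DESeq2 (adjusted p = 0.0467). Without intMo 0 alone Pf4 was called lower too, just under the threshold. Siglecf, an eosinophil receptor and the most abundant of the second, was not called at 9.21, 2.88 and 3.13 CPM in cMo and 3.78, 3.29 and 2.62 CPM in pMo (log2 -0.65 ± 0.43, edgeR adjusted p = 0.276; log2 -0.01 with libraries 1 and 2 alone). In bulk libraries fewer cells of a type and less RNA per cell cannot be told apart, and the part of other cells in the results below was not tested.

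**Figure D1:**
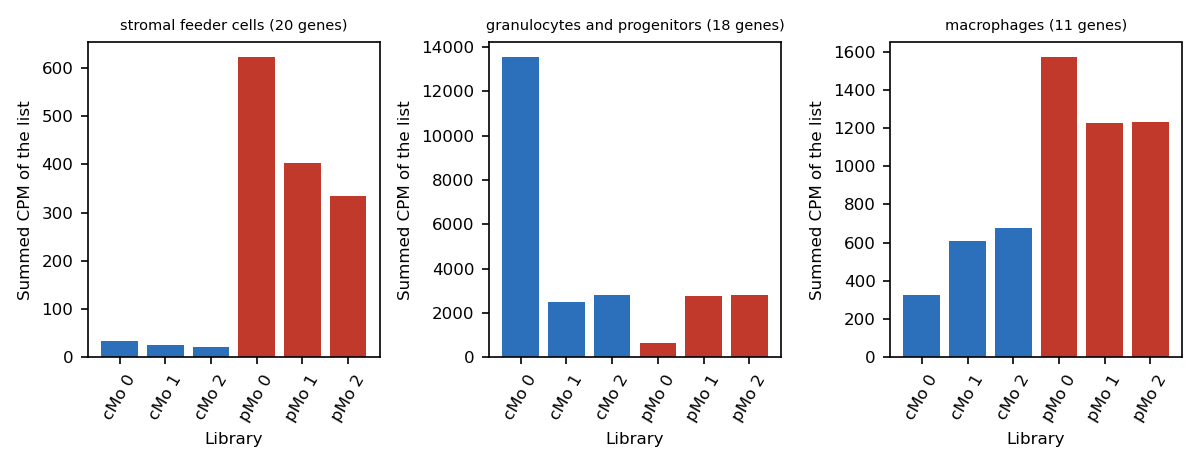
Summed CPM of the tested genes of 3 cell type lists (vertical axes, linear from 0) in each cMo (blue) and pMo (red) library. Stromal sums were below 34 CPM in cMo and 335 to 621 CPM in pMo, while the granulocyte sum was 13530 CPM in cMo 0 and 655 CPM in pMo 0, with libraries 1 and 2 of both subsets between 2480 and 2820 CPM.

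Of the 14059 genes, 4650 differed between pMo and cMo at an edgeR adjusted p under 0.05 (33.1%). The 2420 genes that were higher in pMo made up 17.2% of those tested, and the 2230 that were lower 15.9%. All 3 pMo libraries lay above all 3 cMo libraries for 3652 genes (26%) and below them for 3302 genes (23.5%). Genes named below as extremes of a list or of the ranking had to show no overlap, so its absence is no result for them. The higher genes reached further from 0 than the lower genes: 322 of them (13.3%) had a log2 fold change of 4 or more, that is 16-fold, against 62 (2.8%) of the lower genes. At 32-fold the numbers were 186 and 20. No minimum CPM was set for these numbers, so they can hold genes near 0 counts in a subset, whose size of change is uncertain. With 0 counts over cMo there were 46 genes called higher, and with 0 counts over pMo 9 genes called lower. The median over all genes was 0.03. The shares of gene lists given below stand against 17.2% higher and 15.9% lower over all genes, and a share close to these says nothing particular of a list. A share far from these is a description only, since lists and members were chosen with earlier results of these data known. Without pMo 1 or pMo 2 the number of lower genes was 1335 or 1429.

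**Figure D2:**
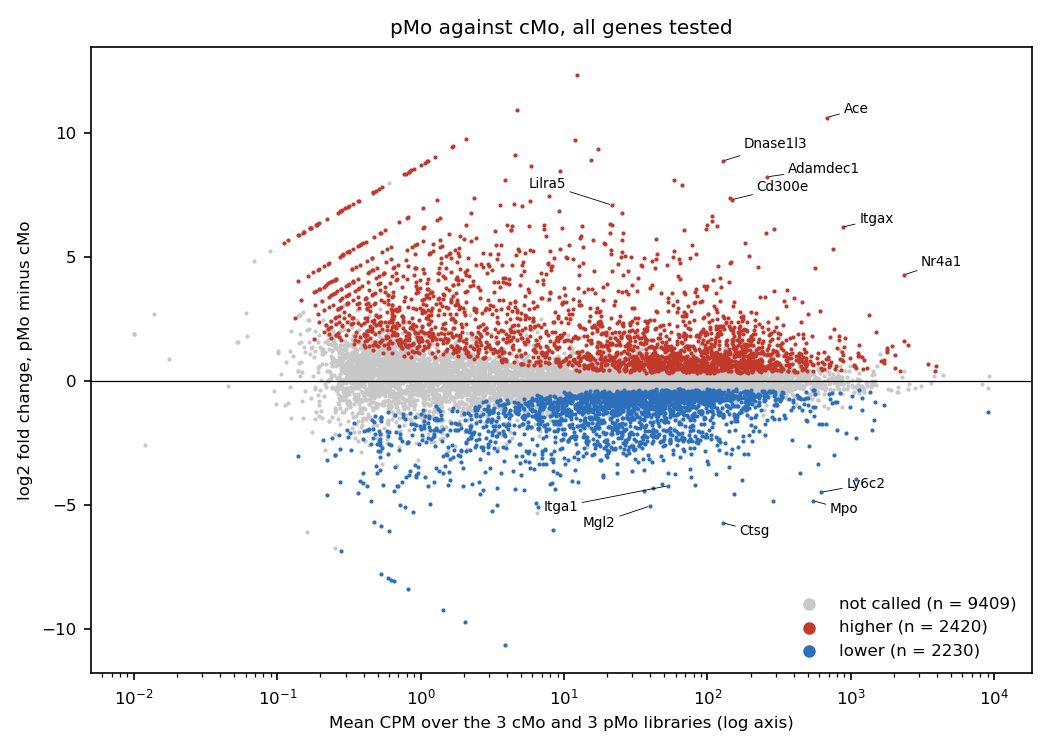
Each of the 14059 genes by its mean CPM over the 6 libraries (horizontal, log axis) and its log2 fold change, pMo minus cMo (vertical), with called genes in red (2420 higher) and blue (2230 lower). Named genes are some of those described in the text, and the genes beyond a log2 of 4 are more often red (322) than blue (62).

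The largest increases among well expressed genes (a mean of at least 20 CPM over the 6 libraries) were in secreted enzymes, receptors and survival proteins. Dnase1l3 (chr14:7964533-7994573, GRCm38), a secreted nuclease that cuts the DNA of dead cells, had 0.432, 0.773 and 0.432 CPM in cMo and 248, 265 and 255 CPM in pMo (log2 8.86 ± 0.32, edgeR adjusted p = 8.36e-07). Adamdec1 (chr14:68563380-68582095, GRCm38), a secreted metalloprotease, had 3.095, 0.844 and 1.296 CPM in cMo and 536, 501 and 526 CPM in pMo (log2 8.22 ± 0.46, edgeR adjusted p = 8.13e-06). The pMo libraries agreed closely for both genes, and both were also high in intMo, with means of 349 and 440.4 CPM. Asb2 (chr12:103321142-103356001, GRCm38), a subunit of a ubiquitin ligase, had 0, 0.703 and 0.972 CPM in cMo and 159, 126 and 115 CPM in pMo (log2 7.89 ± 0.69, edgeR adjusted p = 0.000101). Asb2 was listed at 0 counts in cMo 0 and was high in every pMo library. Its intMo mean was 183 CPM, above the pMo mean of 133 CPM.

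Bcl2a1a, Bcl2a1b and Bcl2a1d, neighbouring copies of a BCL2 relative that blocks cell death, lie between 88723285 and 89207827 on chromosome 9. Bcl2a1a had 0.324, 0.457 and 0.468 CPM in cMo and 76.5, 134 and 138 CPM in pMo (log2 8.10 ± 0.32, edgeR adjusted p = 1.28e-06). Bcl2a1b had 1.12, 1.41 and 2.59 CPM in cMo and 223, 312 and 320.1 CPM in pMo (log2 7.38 ± 0.34, edgeR adjusted p = 3.05e-06), and Bcl2a1d had 1.37, 1.93 and 3.13 CPM in cMo and 167, 234 and 241 CPM in pMo (log2 6.64 ± 0.33, edgeR adjusted p = 3.69e-06). The 3 genes were low in all cMo libraries and lowest within pMo in library 0. Their sequences are nearly alike, so how the reads were shared among them is uncertain.

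Receptors made up the rest of the 10 largest increases. Cd300e (chr11:115051917-115062177, GRCm38), an activating receptor of myeloid cells, had 0.396, 1.97 and 3.204 CPM in cMo and 356, 266 and 257 CPM in pMo (log2 7.30 ± 0.59, edgeR adjusted p = 6.96e-05). Lilra5 (chr7:4237754-4243463, GRCm38), a leukocyte immunoglobulin-like receptor, had 0.324, 0.141 and 0.468 CPM in cMo and 39.4, 47.2 and 41.4 CPM in pMo (log2 7.08 ± 0.34, edgeR adjusted p = 3.29e-06). Itgad (chr7:128154376-128223816, GRCm38), the integrin subunit CD11d encoded next to Itgax, had 0.936, 0.246 and 0.216 CPM in cMo and 111, 19.5 and 20.3 CPM in pMo (log2 6.75 ± 0.92, edgeR adjusted p = 0.000913). Itgad was several times higher in pMo 0 than in the other two pMo libraries, whereas Cd300e and Lilra5 were more even across pMo.

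**Figure D3:**
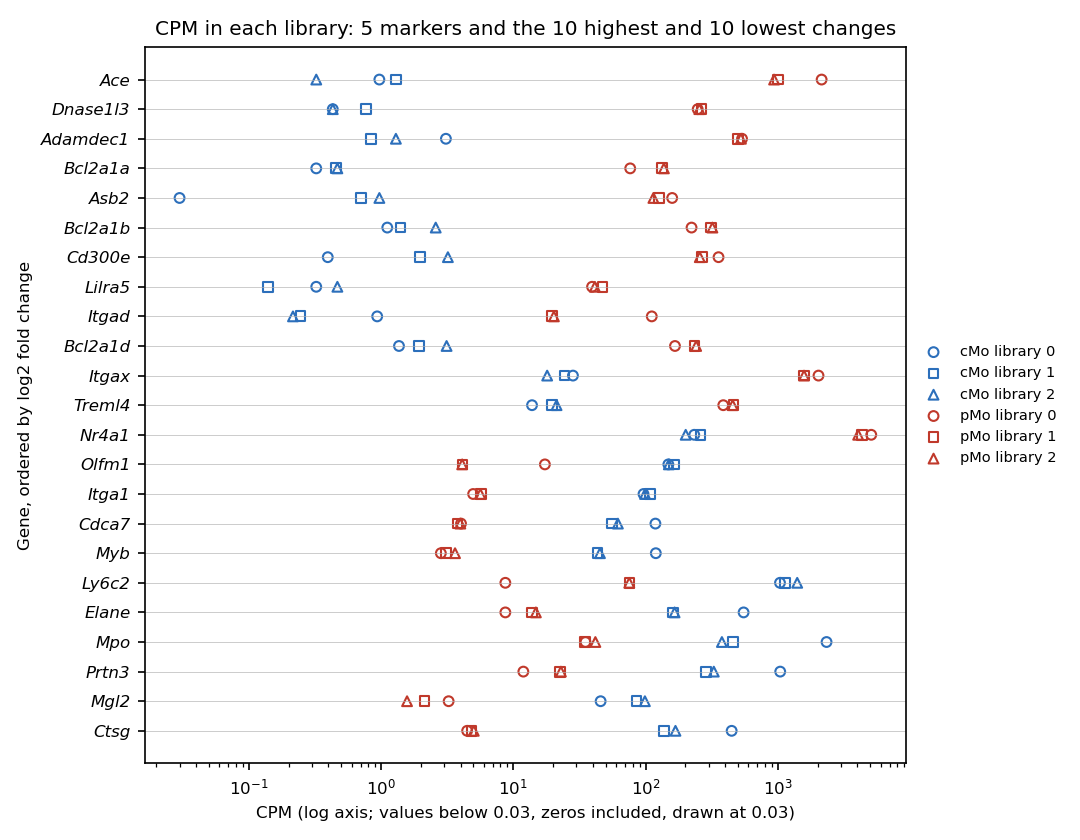
CPM (horizontal, log axis) of the 5 marker genes and of the 10 highest and 10 lowest log2 fold changes, with cMo in blue, pMo in red and a symbol shape for each library. No overlap of blue and red was required of the 10 highest and 10 lowest. Overlap is also absent for the markers outside them, Itgax, Nr4a1 and Treml4. cMo 0 lies highest of the cMo libraries for Ctsg, Prtn3, Mpo, Elane, Myb and Cdca7.

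The largest decreases were in granule enzymes of myeloid progenitors, a lectin, a collagen receptor and factors of dividing cells. Ctsg, which encodes cathepsin G, had 448, 138 and 168 CPM in cMo and 4.48, 4.83 and 5.03 CPM in pMo (log2 -5.72 ± 0.75, edgeR adjusted p = 0.000745). Mpo, the myeloperoxidase gene, had 2335, 460.4 and 378 CPM in cMo and 35.1, 34.8 and 41.7 CPM in pMo (log2 -4.83 ± 0.89, edgeR adjusted p = 0.00359). Both were highest in cMo 0, where the granulocyte and progenitor genes were high as a group. Prtn3 encodes proteinase 3 and had 1042, 285 and 328 CPM in cMo and 11.9, 22.4 and 22.9 CPM in pMo (log2 -4.85 ± 0.79, edgeR adjusted p = 0.00201). Its chromosome 10 neighbour Elane, the neutrophil elastase gene, had 551, 162 and 166 CPM in cMo and 8.71, 13.9 and 14.8 CPM in pMo (log2 -4.55 ± 0.79, edgeR adjusted p = 0.00268). With libraries 1 and 2 alone the log2 changes of Ctsg, Mpo, Prtn3 and Elane were -4.95, -3.45, -3.75 and -3.51.

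Itga1 (chr13:114953096-115101964, GRCm38), the CD49a subunit of a collagen receptor, had 96.5, 108 and 99.1 CPM in cMo and 4.97, 5.67 and 5.64 CPM in pMo (log2 -4.22 ± 0.16, edgeR adjusted p = 8.36e-07). Its libraries agreed more closely than those of any other gene among the 10 lowest, as the SE shows. Mgl2 (chr11:70130329-70137550, GRCm38), a lectin for galactose-type sugars, had 45.7, 85.3 and 98.8 CPM in cMo and 3.25, 2.14 and 1.57 CPM in pMo (log2 -5.04 ± 0.43, edgeR adjusted p = 8.01e-05). Olfm1, a secreted olfactomedin protein, had 149, 163 and 149.97 CPM in cMo and 17.3, 4.13 and 4.11 CPM in pMo (log2 -4.18 ± 0.58, edgeR adjusted p = 0.000989). Mgl2 and Olfm1 were low in every pMo library, with Olfm1 higher in pMo 0 than in the others (log2 -5.24 from libraries 1 and 2). Myb (chr10:21124935-21160984, GRCm38), a transcription factor of blood progenitors, had 119.5, 43.2 and 45.2 CPM in cMo and 2.83, 3.08 and 3.63 CPM in pMo (log2 -4.45 ± 0.51, edgeR adjusted p = 0.000385). Cdca7, a partner of a chromatin remodeller in dividing cells, had 119, 56.04 and 61.8 CPM in cMo and 4.03, 3.78 and 3.98 CPM in pMo (log2 -4.33 ± 0.53, edgeR adjusted p = 0.000549). Myb and Cdca7 were highest in cMo 0, and the other two cMo libraries also lay well above pMo (log2 -3.72 and -3.92 from libraries 1 and 2).

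Genes of DNA replication and mitosis fell as a group. Of 38 tested, 31 fell (81.6%, against 15.9% of all genes), 3 rose and 4 were not called, and the median log2 fold change was -2.31. Their summed CPM was 7818, 6221 and 6498 in cMo and 1822, 2239 and 2285 in pMo. Rrm2, a subunit of the enzyme that makes deoxynucleotides, had 247, 135 and 165 CPM in cMo and 11.1, 21.4 and 21.99 CPM in pMo (log2 -3.33 ± 0.67, edgeR adjusted p = 0.00562). The helicase genes Mcm2 (log2 -2.83), Mcm3 (log2 -2.92), Mcm5 (log2 -2.96) and Mcm6 (log2 -2.95), the S phase cyclins Ccne1 (log2 -3.17) and Ccne2 (log2 -3.20), and the mitotic genes Mki67 (log2 -2.60), Top2a (log2 -2.37) and Cdk1 (log2 -2.27) fell. pMo 0 was the lowest pMo library for most of the 38 genes, and with libraries 1 and 2 alone 32 genes fell and 3 rose.

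The members that rose were cyclin D2 and a pair of brakes on the cell cycle. Ccnd2 had 60.9, 19.1 and 18.1 CPM in cMo and 139, 77.2 and 77.6 CPM in pMo (log2 1.58 ± 0.47, edgeR adjusted p = 0.0287). Its call was lost without cMo 1, cMo 2 or pMo 0 (adjusted p up to 0.0933). Leaving out cMo 0, the highest cMo library, gave a log2 change of 2.39. The retinoblastoma gene Rb1 rose (log2 0.92 ± 0.14, edgeR adjusted p = 0.00126), as did Cdkn1b, which encodes the inhibitor p27 (log2 0.78 ± 0.16, edgeR adjusted p = 0.00547). Cdk4 (log2 -1.35), E2f1 (log2 -1.32) and Cdkn2c (log2 -2.07) fell, while Ccnd1, Ccnd3, Cdk6 and E2f2 were not called.

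**Figure D4:**
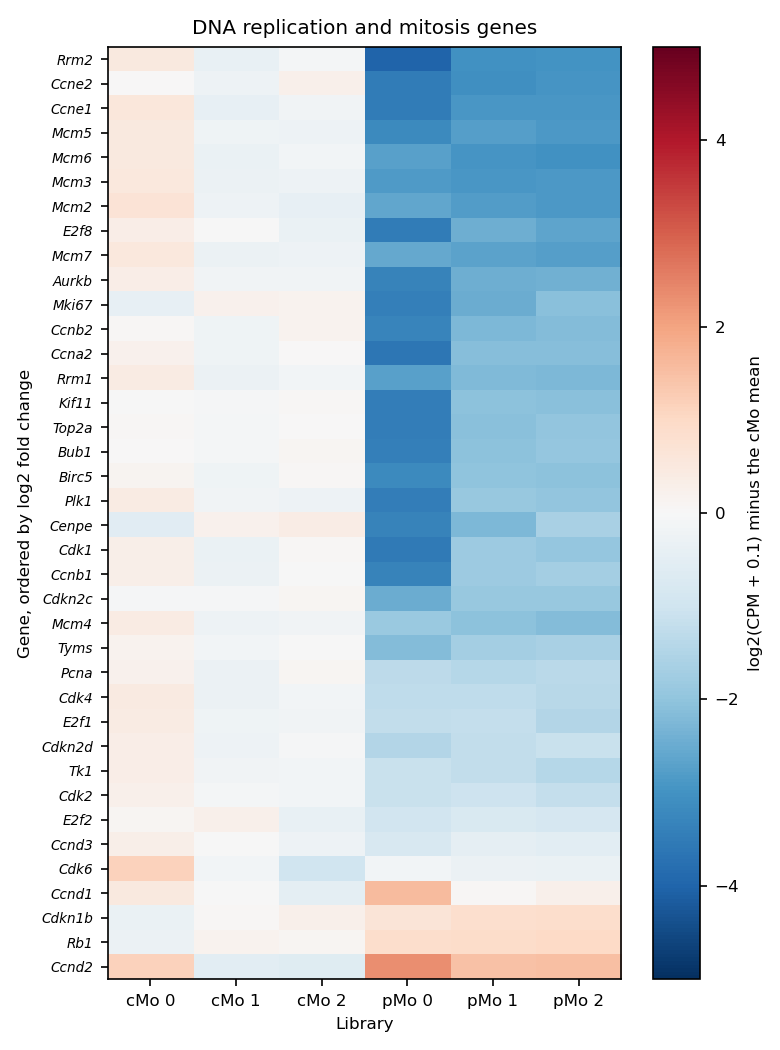
The 38 DNA replication and mitosis genes (rows, ordered by log2 fold change) in each cMo and pMo library (columns), as log2(CPM + 0.1) minus the mean of the cMo libraries, blue for below and red for above it. Most rows are blue in all 3 pMo columns, and Ccnd2, Rb1 and Cdkn1b, at the end of the order, are red.

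Promoter sequences of 3 of these genes are shown because replication and mitotic genes are known to carry sites for E2F and for the complex that binds the cell cycle homology region (CHR). They are the 250 bases before the transcription start in RefSeq on GRCm38.p6, read 5′ to 3′ on the gene's strand. The regions are chr1:128359706-128359955 (minus strand) for Mcm6, chr10:69352913-69353162 (minus strand) for Cdk1 and chr11:99024190-99024439 (minus strand) for Top2a. Capitals mark matches on either strand to TTTNGCGC (E2F) or TTTGAA (CHR).
Mcm6: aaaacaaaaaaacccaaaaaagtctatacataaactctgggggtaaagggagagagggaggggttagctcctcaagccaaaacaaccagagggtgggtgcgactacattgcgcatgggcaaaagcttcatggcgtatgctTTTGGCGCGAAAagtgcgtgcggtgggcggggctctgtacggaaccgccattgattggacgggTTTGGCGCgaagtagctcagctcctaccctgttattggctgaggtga
Cdk1: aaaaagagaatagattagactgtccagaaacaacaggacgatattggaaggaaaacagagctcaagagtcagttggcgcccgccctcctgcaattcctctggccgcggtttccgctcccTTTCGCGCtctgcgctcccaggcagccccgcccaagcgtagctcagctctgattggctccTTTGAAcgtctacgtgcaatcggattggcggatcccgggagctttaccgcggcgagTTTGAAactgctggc
Top2a: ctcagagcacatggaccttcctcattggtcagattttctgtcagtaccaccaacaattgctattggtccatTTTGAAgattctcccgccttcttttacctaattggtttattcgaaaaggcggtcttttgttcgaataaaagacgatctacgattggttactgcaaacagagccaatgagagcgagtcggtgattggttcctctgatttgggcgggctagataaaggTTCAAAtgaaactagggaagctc
In Mcm6 the E2F letters began 110, 106 and 47 bases before the start, the first pair overlapping on opposite strands. In Cdk1 the E2F letters began 131 bases before it and the CHR letters 71 and 15 bases before it, and in Top2a the CHR letters began at 179 and 23. Of the 13315 windows of tested genes, 1.83% held the E2F letters and 11.1% the CHR letters. These matches are descriptions of the sequence, and the genes were chosen after the matches were seen.

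Chromatin genes split. Of 37 tested, 15 fell (40.5%), 9 rose (24.3%) and 13 were not called. Uhrf1, which guides copying of DNA methylation after replication, had 190.4, 108 and 117 CPM in cMo and 10.6, 12.5 and 12.6 CPM in pMo (log2 -3.54 ± 0.55, edgeR adjusted p = 0.00164). Its partner Dnmt1 (log2 -1.74), the Polycomb methyltransferase Ezh2 (log2 -1.75) and the histone variant gene H2afz (log2 -1.42) also fell. Dnmt3a, which sets new DNA methylation, had 32.7, 29.4 and 20.2 CPM in cMo and 184, 157 and 148 CPM in pMo (log2 2.57 ± 0.27, edgeR adjusted p = 0.000243). Uhrf1 was low and Dnmt3a high in all 3 pMo libraries. The demethylases Tet2 (log2 1.46) and Kdm6b (log2 1.79) rose, while Tet1 fell (log2 -2.04) and Ezh1, the Ezh2 paralog, rose (log2 0.57).

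Of 31 genes for making ribosomes none rose. Of these, 10 fell (32.3%), with a median log2 of -0.51, and their sum was 4375, 2818 and 3303 CPM in cMo and 2253, 2336 and 2482 CPM in pMo. Libraries 1 and 2 alone gave 11 that fell and 2 that rose, and a median of -0.26. Dkc1, the pseudouridine synthase of ribosomal RNA, had 67.9, 38.6 and 47.3 CPM in cMo and 16.6, 16.6 and 20.02 CPM in pMo (log2 -1.53 ± 0.24, edgeR adjusted p = 0.00161). Of 29 ribosomal protein genes 2 fell (6.9%) and 27 were not called, with a median of -0.22 (-0.13 with libraries 1 and 2 alone). Rps2, of the small subunit, had 2911, 1728 and 2132 CPM in cMo and 1175, 1136 and 1126 CPM in pMo (log2 -0.98 ± 0.20, edgeR adjusted p = 0.00512), and Rpl3 also fell (log2 -0.46). Rps2 was highest in cMo 0, and its lack of overlap between the subsets was required by the rule.

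Energy metabolism changed by smaller steps. Of 31 genes of respiration and the TCA cycle 15 fell (48.4%), 1 rose and 15 were not called, with a median of -0.40. Idh3a, a subunit of isocitrate dehydrogenase, had 90.9, 47.1 and 58.4 CPM in cMo and 24.8, 24.1 and 24.7 CPM in pMo (log2 -1.42 ± 0.24, edgeR adjusted p = 0.00226). Dlst, a subunit of the 2-oxoglutarate dehydrogenase complex, had 196, 171 and 164 CPM in cMo and 226, 236 and 229 CPM in pMo (log2 0.38 ± 0.11, edgeR adjusted p = 0.0282). Dlst was higher in all pMo libraries by a small step, a call lost without cMo 1, cMo 2 or any pMo library (adjusted p up to 0.0937). Of 9 genes encoded in the mitochondrion mt-Nd1 fell (log2 -0.68) and 8 were not called, and with libraries 1 and 2 alone 2 fell. mt-Co1, the most abundant, had 8858, 8659 and 12118 CPM in cMo and 7162, 8744 and 8490.00 CPM in pMo (log2 -0.28 ± 0.16, edgeR adjusted p = 0.198), and its subsets overlapped.

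In glycolysis 7 of 27 genes fell (25.9%, against 15.9% of all genes) and 2 rose (7.4%, against 17.2%), with a median of -0.40. Libraries 1 and 2 alone gave 7 that fell and 4 that rose, and a median of -0.11. Pfkfb3, which makes the activator of phosphofructokinase, had 51.6, 36.7 and 30.2 CPM in cMo and 166, 172 and 172 CPM in pMo (log2 2.10 ± 0.22, edgeR adjusted p = 0.000205). The lactate carriers went opposite ways: Slc16a3 rose (log2 1.03 ± 0.19, edgeR adjusted p = 0.00349) and Slc16a1 fell. Slc16a1 had 43.04, 13.9 and 13.97 CPM in cMo and 6.66, 4.52 and 3.67 CPM in pMo (log2 -2.25 ± 0.46, edgeR adjusted p = 0.00549). Without cMo 0, the highest library, the fall was smaller (log2 -1.50). Enzymes of the main glycolytic chain such as Gapdh (log2 -0.45), Pkm (log2 -0.44) and Ldha (log2 -0.23) were not called.

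Among lipid genes, of 23 genes of sterol and fatty acid synthesis none rose and 8 fell (34.8%), with a median of -0.68 (-0.40 with libraries 1 and 2 alone). Elovl6, a fatty acid elongase, had 67.8, 56.7 and 49.4 CPM in cMo and 12.9, 18.4 and 19.01 CPM in pMo (log2 -1.79 ± 0.31, edgeR adjusted p = 0.00247), and Fasn (log2 -1.37) and Fdps (log2 -1.51) fell too. Of 25 genes of fatty acid use and storage 6 rose (24.0%, against 17.2% of all genes) and 2 fell (8.0%, against 15.9%), with a median of 0.20; with libraries 1 and 2 alone 8 rose and 1 fell. Cd36, a fatty acid and scavenger receptor, had 0.07198, 2.25 and 2.95 CPM in cMo and 54.4, 56.02 and 59.6 CPM in pMo (log2 5.01 ± 0.76, edgeR adjusted p = 0.00148). Cd36 was even across pMo and lowest in cMo 0. The lipid-binding protein gene Fabp4 (log2 4.64), the nuclear receptor gene Pparg (log2 4.15) and the lipoprotein lipase gene Lpl (log2 3.37) rose, all of which are also genes of fat cells. Acsl3, which activates fatty acids, had 37.2, 27.7 and 33.9 CPM in cMo and 14.99, 22.7 and 19.98 CPM in pMo (log2 -0.78 ± 0.19, edgeR adjusted p = 0.0118), and Mgll, a lipase, fell further (log2 -2.46). Enzymes of oxidation such as Cpt1a (log2 -0.05), Acadm (log2 -0.14) and Hadha (log2 -0.14) were not called.

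Iron and heme genes were mostly higher: of 20 listed 17 were tested, 10 rose (58.8%) and 1 fell (2 with libraries 1 and 2 alone), with a median of 0.62. Cp, which encodes the ferroxidase ceruloplasmin, had 0.648, 2.74 and 3.92 CPM in cMo and 25.3, 21.7 and 21.5 CPM in pMo (log2 3.23 ± 0.49, edgeR adjusted p = 0.00148). The iron exporter gene Slc40a1 (log2 1.95), the ferritin genes Fth1 (log2 1.31) and Ftl1 (log2 0.41) and the heme exporter gene Flvcr1 (log2 0.75) rose. Steap3, the reductase that frees iron in endosomes, had 18.4, 16.9 and 12.96 CPM in cMo and 4.35, 2.87 and 3.85 CPM in pMo (log2 -2.12 ± 0.27, edgeR adjusted p = 0.000623). Steap3 was lower in every pMo library, and the transferrin receptor gene Tfrc was not called (log2 -0.21).

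Of 22 carriers of amino acids and other metabolites 5 rose (22.7%) and 3 fell (13.6%), near the 17.2% and 15.9% of all genes, and with libraries 1 and 2 alone 6 rose and 6 fell. Slc12a2, the sodium, potassium and chloride cotransporter NKCC1, had 3.67, 2.18 and 1.800 CPM in cMo and 264, 161 and 168 CPM in pMo (log2 6.27 ± 0.37, edgeR adjusted p = 1.02e-05). The cystine carrier gene Slc7a11 rose (log2 3.58). Slc16a6, of the monocarboxylate carrier family, had 76.1, 57.8 and 51.7 CPM in cMo and 25.02, 28.01 and 29.02 CPM in pMo (log2 -1.18 ± 0.18, edgeR adjusted p = 0.00137). Among 23 antioxidant genes 5 rose (21.7%) and 7 fell (30.4%). Nfe2l2, the transcription factor NRF2, had 143, 185 and 209 CPM in cMo and 524, 741 and 749 CPM in pMo (log2 1.91 ± 0.19, edgeR adjusted p = 0.000172), and its known targets split. Nqo1 (log2 1.98), Srxn1 (log2 1.55) and Txnrd1 (log2 1.02) rose, whereas Gclm fell (log2 -1.40) and Gclc and Hmox1 were not called. Prdx4, a peroxidase of the secretory pathway, had 43.6, 47.4 and 67.5 CPM in cMo and 13.02, 12.4 and 10.4 CPM in pMo (log2 -2.15 ± 0.20, edgeR adjusted p = 0.000113).

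Genes of protein folding in the endoplasmic reticulum were mixed, with 8 of 26 that fell (30.8%) and 4 that rose (15.4%). The folding enzyme genes P4hb (log2 -0.84), Pdia4 (log2 -0.79) and Hsp90b1 (log2 -0.72) fell, and Hspa5, the main chaperone, was not called (log2 0.16). Ddit3, the stress factor CHOP, had 11.7, 9.42 and 11.4 CPM in cMo and 22.8, 17.2 and 18.6 CPM in pMo (log2 0.85 ± 0.18, edgeR adjusted p = 0.00599). Asns, the asparagine synthetase gene, had 75.03, 10.2 and 12.7 CPM in cMo and 8.05, 6.09 and 4.896 CPM in pMo (log2 -2.36 ± 0.69, edgeR adjusted p = 0.0281). cMo 0 decided the size for Asns: the change was -0.85 without it, and the call was lost without any 1 pMo library (adjusted p up to 0.0942).

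In the NADPH oxidase and microbicidal list 12 of 14 genes were tested, of which 4 rose (33.3%) and 3 fell (25.0%). Acod1, which makes itaconate, had 2.66, 3.76 and 4.14 CPM in cMo and 22.7, 40.3 and 37.6 CPM in pMo (log2 3.25 ± 0.61, edgeR adjusted p = 0.00402). The oxidase subunit gene Cybb (log2 0.83) rose, while Ncf1 (log2 -0.58) and the proton channel gene Hvcn1 (log2 -1.18) fell. Lyz2, the lysozyme of myeloid cells, had 7506, 13371 and 17724 CPM in cMo and 3684, 6368 and 5962 CPM in pMo (log2 -1.27 ± 0.40, edgeR adjusted p = 0.0381), a call lost without any 1 of 6 libraries, which were cMo 1, cMo 2, intMo 2 and each pMo library (adjusted p up to 0.125). Nos2 and Arg1 had too few counts to be tested.

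Receptors of the immunoglobulin, lectin and Fc families changed often. Of 35 tested (36 listed) 19 rose (54.3%, against 17.2% of all genes), 8 fell (22.9%) and 8 were not called, and the median was 0.78. Beside Cd300e and Lilra5, the activating Fc receptor gene Fcgr4 (log2 3.98), the lectin gene Clec4n, which encodes dectin-2 (log2 3.62), and the paired receptor genes Pilra (log2 2.05) and Pilrb1 (log2 2.08) rose. Clec10a, the lectin encoded beside Mgl2, had 52.5, 151 and 186 CPM in cMo and 35.8, 11.6 and 13.2 CPM in pMo (log2 -2.69 ± 0.64, edgeR adjusted p = 0.0122). Clec10a was lower in pMo, with cMo 0 the lowest cMo and pMo 0 the highest pMo library (log2 -3.76 from libraries 1 and 2). Cd209a (log2 -3.01), Cd33 (log2 -1.77) and Fcgr3 (log2 -0.72) fell as well. Close copies in the Cd300, Clec4 and Pilr families make single values uncertain.

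Of 23 scavenger and dying-cell receptors 21 were tested, 10 rose (47.6%) and 3 fell (14.3%; 5 with libraries 1 and 2 alone). Mertk, a kinase receptor for the uptake of dying cells, had 4.46, 17.2 and 14.9 CPM in cMo and 108, 98.98 and 98.7 CPM in pMo (log2 3.06 ± 0.46, edgeR adjusted p = 0.00147), and the intMo mean of 276 CPM lay above both. The related receptor gene Axl (log2 2.48), the bacterial scavenger receptor gene Marco (log2 5.09) and the integrin genes Itgav (log2 2.09) and Itgb3 (log2 2.34) rose. Mfge8, which bridges those integrins to dying cells, had 31.2, 25.2 and 22.4 CPM in cMo and 11.2, 5.43 and 4.28 CPM in pMo (log2 -1.91 ± 0.35, edgeR adjusted p = 0.0034). Mfge8 was lower in all pMo libraries, and Cd163, the hemoglobin scavenger receptor gene, fell (log2 -3.29).

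Complement and coagulation genes went both ways, with 10 of 29 tested (32 listed) that rose (34.5%) and 6 that fell (20.7%). C1qa, a chain of the recognition protein C1q, had 6.77, 18.2 and 22.9 CPM in cMo and 212, 88.8 and 90.04 CPM in pMo (log2 3.03 ± 0.57, edgeR adjusted p = 0.00405), and C1qb (log2 2.37), C1qc (log2 2.33) and the C5a receptor gene C5ar1 (log2 2.94) rose with it. C1qa was highest in pMo 0 (log2 2.12 from libraries 1 and 2), and its intMo mean was 552 CPM. F13a1, the clot-stabilising factor XIII A chain, had 1393, 2223 and 2550.4 CPM in cMo and 54.9, 171 and 172 CPM in pMo (log2 -3.96 ± 0.60, edgeR adjusted p = 0.00145). F13a1 was low in every pMo library.

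G protein-coupled receptors formed a changed set in which 19 of 41 rose (46.3%) and 5 fell (12.2%; 8 with libraries 1 and 2 alone), with a median of 0.84. S1pr5 (chr9:21242912-21248443, GRCm38), a receptor for the lipid sphingosine 1-phosphate that guides exit from marrow, had 0.828, 0.211 and 0.504 CPM in cMo and 44.2, 42.01 and 37.5 CPM in pMo (log2 6.31 ± 0.40, edgeR adjusted p = 1.37e-05). Its intMo mean was 0.184 CPM, below that of cMo. The formyl peptide receptor genes Fpr1 (log2 3.48) and Fpr2 (log2 2.61), the adenosine receptor gene Adora2a (log2 4.42) and S1pr1 (log2 1.90) rose. P2ry1, an ADP receptor, had 14.2, 16.3 and 19.4 CPM in cMo and 0.739, 1.47 and 1.62 CPM in pMo (log2 -3.70 ± 0.55, edgeR adjusted p = 0.00123). P2ry1 was low in all 3 pMo libraries, while the related P2ry13 rose (log2 1.07) and P2ry12 was not called (log2 0.19). The prostaglandin E2 receptors split, since Ptger4 rose (log2 2.03) and Ptger2 (log2 -1.93) and Ptger3 (log2 -0.94) fell.

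Downstream of these receptors, 12 of 31 tested genes (33 listed) of G protein and cyclic nucleotide signalling rose (38.7%) and 6 fell (19.4%). Rgs1, which ends G protein signals, had 0.468, 3.06 and 3.82 CPM in cMo and 286, 171 and 179 CPM in pMo (log2 6.43 ± 0.70, edgeR adjusted p = 0.000298). Its relative Rgs18 had 26.4, 36.7 and 55.4 CPM in cMo and 3.08, 10.01 and 10.7 CPM in pMo (log2 -2.32 ± 0.65, edgeR adjusted p = 0.0243). Rgs1 was high and Rgs18 low in pMo, but the Rgs18 call was lost without cMo 2 or any 1 pMo library (adjusted p up to 0.0748). In intMo the mean of Rgs1 was 364 CPM, above its pMo mean of 212 CPM. The cyclic AMP phosphodiesterase gene Pde4b (log2 2.70) rose and the kinase subunit gene Prkar2b (log2 -2.18) fell.

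Of 21 tested eicosanoid enzymes (22 listed) 7 rose (33.3%) and 5 fell (23.8%). Ptgs2, the inducible cyclooxygenase, had 0.468, 1.58 and 2.09 CPM in cMo and 13.6, 21.7 and 20.98 CPM in pMo (log2 3.76 ± 0.47, edgeR adjusted p = 0.000575), while Ptgs1, the constitutive form, fell (log2 -0.99). Ptgr1, which inactivates prostaglandins and leukotrienes, had 113, 76.5 and 99.03 CPM in cMo and 11.5, 26.96 and 33.2 CPM in pMo (log2 -2.01 ± 0.47, edgeR adjusted p = 0.0107). Ptgs2 was high and Ptgr1 low in every pMo library. In intMo the mean of Ptgs2 was 28.3 CPM, above every pMo library. Alox5ap, needed for leukotriene synthesis, fell (log2 -0.70), and Alox5 was not called (log2 -1.21).

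Cytokine receptor and JAK-STAT genes rose in 21 of 41 cases (51.2%) and fell in 2 (4.9%; 4 with libraries 1 and 2 alone). Il21r, the interleukin 21 receptor, had 16.4, 11.4 and 10.2 CPM in cMo and 217, 156 and 159 CPM in pMo (log2 3.81 ± 0.22, edgeR adjusted p = 8.91e-06). The shared gamma chain gene Il2rg (log2 1.63), Il27ra (log2 2.37), Il10ra (log2 1.74) and the feedback inhibitor gene Socs3 (log2 2.22) rose. Il3ra, the interleukin 3 receptor, had 33.2, 43.7 and 35.3 CPM in cMo and 18.98, 19.7 and 17.3 CPM in pMo (log2 -1.003 ± 0.15, edgeR adjusted p = 0.00126). Il21r was high and Il3ra low in all 3 pMo libraries, and Il6st, the shared chain of the interleukin 6 family, fell too (log2 -0.99).

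Cytokines and chemokines rose in 18 of 34 tested cases (52.9%, 36 listed) and fell in 4 (11.8%; 7 with libraries 1 and 2 alone), with a median of 1.22. Ccl22 (chr8:94745590-94751699, GRCm38), a chemokine that draws CCR4-bearing T cells, had 0.07198, 0.0703 and 0.03600 CPM in cMo and 35.6, 29.8 and 27.3 CPM in pMo (log2 8.91 ± 0.71, edgeR adjusted p = 5.90e-05). Its intMo mean was 3.999 CPM. Il1b (log2 5.30) rose together with its antagonist Il1rn (log2 4.61) and its decoy receptor Il1r2 (log2 1.77). The chemokines Ccl3 (log2 2.82), Ccl4 (log2 4.99) and Ccl5 (log2 5.11) rose, whereas Ccl2 (log2 -0.54) and Ccl7 (log2 -0.04), ligands of Ccr2, were not called. The subunits of interleukin 12 moved apart, since Il12b rose (log2 5.96 ± 0.83, edgeR adjusted p = 0.000934) and Il12a fell (log2 -5.28 ± 0.88, edgeR adjusted p = 0.00219), both from low levels. Mif, a migration inhibitory factor, had 192, 71.3 and 73.3 CPM in cMo and 61.6, 53.4 and 45.1 CPM in pMo (log2 -1.07 ± 0.36, edgeR adjusted p = 0.0448). cMo 0 decided the size for Mif, at -0.44 without it, and the call was lost without any 1 of 7 libraries, which were all but cMo 1 and cMo 2 (adjusted p up to 0.134).

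Growth factor, TGF-beta and Wnt genes numbered 36 tested of 40 listed, of which 16 rose (44.4%, against 17.2% of all genes) and 1 fell (2.8%, against 15.9%). Without both libraries 0, 17 rose and 5 fell. Pdgfb, a platelet-derived growth factor chain, had 0.1799, 1.09 and 1.08 CPM in cMo and 77.4, 18.8 and 16.2 CPM in pMo (log2 5.57 ± 0.89, edgeR adjusted p = 0.00182). Pdgfb was uneven within pMo, with library 0 highest. From libraries 1 and 2 alone the log2 change came to 4.01. The intMo mean of Pdgfb was 44.6 CPM, above its pMo mean of 37.5 CPM. Csf1 (log2 5.10), Hbegf (log2 4.38), the TGF-beta receptor genes Tgfbr1 (log2 2.59) and Tgfbr2 (log2 1.65) and the pathway inhibitor gene Smad7 (log2 2.41) rose. Vegfb, a vascular growth factor, had 21.02, 12.1 and 9.47 CPM in cMo and 7.31, 4.31 and 3.23 CPM in pMo (log2 -1.52 ± 0.37, edgeR adjusted p = 0.0134), a call lost without pMo 1 (adjusted p = 0.0555). Stromal sums were 22.5 to 33.6 CPM in cMo and 335 to 621 CPM in pMo, and stromal cells also make growth factors.

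Sensors of microbes and damage rose in 18 of 35 tested cases (51.4%, 36 listed) and fell in 2 (5.7%), with a median of 0.60. Nod1, an intracellular sensor of bacterial cell wall, had 69.7, 87.8 and 70.6 CPM in cMo and 389, 351 and 323 CPM in pMo (log2 2.22 ± 0.16, edgeR adjusted p = 3.65e-05), and its relative Nod2 rose (log2 1.73). The receptor genes Tlr1 (log2 2.10), Tlr5 (log2 1.80), Tlr7 (log2 1.96), Tlr9 (log2 1.20) and Tlr13 (log2 1.15) rose, while Tlr2 (log2 0.06) and Tlr4 (log2 0.36) were not called. Tmem173, which encodes STING, the adaptor for cytosolic DNA, had 166, 172 and 195 CPM in cMo and 97.5, 114 and 117 CPM in pMo (log2 -0.70 ± 0.14, edgeR adjusted p = 0.00516). Nod1 was high and Tmem173 low in all pMo libraries, and Pycard, the inflammasome adaptor gene, fell slightly (log2 -0.43).

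Feedback inhibitors of MAP kinases rose in 11 of 23 cases (47.8%) and fell in 2 (8.7%). Dusp5 (chr19:53529109-53542431, GRCm38), a phosphatase of nuclear ERK, had 8.93, 7.17 and 6.98 CPM in cMo and 363, 358 and 353 CPM in pMo (log2 5.54 ± 0.18, edgeR adjusted p = 7.30e-07). Its libraries agreed closely within each subset. The phosphatase genes Dusp16 (log2 4.80), Dusp2 (log2 4.08), Dusp1 (log2 3.55) and Dusp4 (log2 2.91) rose too. Dusp7 had 34.8, 63.03 and 61.9 CPM in cMo and 31.2, 29.6 and 23.6 CPM in pMo (log2 -0.92 ± 0.23, edgeR adjusted p = 0.0143), a call lost without pMo 2 (adjusted p = 0.0612). Several of these genes respond to handling. Of 16 immediate early and heat shock genes 9 rose (56.2%, against 17.2% of all genes) and none fell. That list summed to 4020, 4369 and 5037 CPM in cMo and 6898, 6613 and 6379 CPM in pMo. Its most abundant member, the chaperone Hspa8, was not called at 3167, 3445 and 4112 CPM in cMo and 3042, 4635 and 4561 CPM in pMo (log2 0.19 ± 0.20, edgeR adjusted p = 0.491). Hspa1a, Hspa1b, Hsph1 and Dnajb1 were not called, whereas Egr3 (log2 7.25), Egr1 (log2 2.45), Jun (log2 2.36) and Fosb (log2 5.72) rose. The part of handling in these results was not tested.

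Of 78 tested transcription factors (80 listed) 37 rose (47.4%), 6 fell (7.7%; 12 with libraries 1 and 2 alone) and 35 were not called. Nr4a3 (chr4:48045153-48086447, GRCm38), a receptor of the Nr4a1 family, had 0, 0.141 and 0 CPM in cMo and 23.8, 15.9 and 15.95 CPM in pMo (log2 8.47 ± 0.79, edgeR adjusted p = 0.000124), and Nr4a2 also rose (log2 2.94). Nr4a3 had 0 counts in cMo 0 and cMo 2. The Notch target gene Hes1 (log2 5.50), the LXR alpha gene Nr1h3 (log2 5.22), Batf3 (log2 4.27), Ets1 (log2 4.09) and the NF-kB members Relb (log2 2.44), Rel (log2 2.18) and Nfkb2 (log2 2.06) rose. Beside Myb, the progenitor factor gene Hoxa9 (log2 -3.02) and Id1 (log2 -1.87), Sox4 (log2 -1.73), Cebpd (log2 -1.49) and Hmga1 (log2 -1.13) fell. The factors Irf8 (log2 -0.26), Klf4 (log2 -0.26), Cebpa (log2 -0.60) and Runx1 (log2 -0.06) of monocyte development were not called.

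Promoters of the marker gene Itgax and of Bcl2a1a, among the 10 largest increases above, are shown. These promoters were picked because they hold the letters TGANTCA that AP-1 (Jun and Fos proteins) binds, marked in capitals. They are the 250 bases before the RefSeq start on GRCm38.p6, at chr7:128129300-128129549 (plus strand) and chr9:88956670-88956919 (plus strand).
Itgax: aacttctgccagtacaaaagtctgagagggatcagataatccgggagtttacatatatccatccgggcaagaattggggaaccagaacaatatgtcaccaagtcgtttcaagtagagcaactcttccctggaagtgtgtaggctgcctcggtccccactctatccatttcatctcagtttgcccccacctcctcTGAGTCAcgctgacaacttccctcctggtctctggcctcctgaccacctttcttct
Bcl2a1a: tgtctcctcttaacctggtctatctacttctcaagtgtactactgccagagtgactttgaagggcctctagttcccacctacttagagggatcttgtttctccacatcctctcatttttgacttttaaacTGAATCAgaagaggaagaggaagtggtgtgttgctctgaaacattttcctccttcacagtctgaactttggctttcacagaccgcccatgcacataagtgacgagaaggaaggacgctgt
The letters began 56 bases before the start of Itgax and 120 bases before that of Bcl2a1a. Of the 13315 windows 4.78% held TGANTCA, and these genes were chosen after the matches were seen. On both strands 20.8% of windows held TGGGAA (RBPJ, the factor of Notch), 0.931% AAAGGTCA (Nr4a receptors) and 2.4% TGACGTCA (cyclic AMP response element). A further 0.503% held TCACCCCAC (sterol regulatory element), 2.88% an interferon-stimulated response element and 0.428% an NF-kB element. Shares among called genes were not compared, since 10450 of 14059 tested genes (74.3%) had a window of the same symbol.

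Genes of survival and death rose in 13 of 33 tested cases (39.4%, 34 listed) and fell in 4 (12.1%), and the risers lay on opposing sides. Pmaip1, the death-promoting protein NOXA, had 72.3, 86.2 and 103 CPM in cMo and 331, 419.5 and 422 CPM in pMo (log2 2.16 ± 0.20, edgeR adjusted p = 0.000127). The death-promoting Bcl2l11 (log2 0.98), Bmf (log2 1.27) and Bbc3 (log2 0.94) rose, and so did the protective Bcl2 (log2 1.51), Mcl1 (log2 0.82), Birc3 (log2 1.25) and Cflar (log2 0.80). Mlkl, the pore protein of necroptosis, had 60.1, 44.7 and 54.3 CPM in cMo and 12.1, 23.04 and 24.5 CPM in pMo (log2 -1.42 ± 0.31, edgeR adjusted p = 0.00724). Pmaip1 was high and Mlkl low in each pMo library.

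Antigen presentation genes rose or were not called, and none fell. In the list of MHC class II and costimulation 14 of 18 rose (77.8%), with a median of 1.86. Pdcd1lg2 (chr19:29410919-29471161, GRCm38), the inhibitory ligand PD-L2, had 0.144, 0.211 and 0.108 CPM in cMo and 15.6, 18.9 and 20.1 CPM in pMo (log2 6.83 ± 0.28, edgeR adjusted p = 1.61e-06). Pdcd1lg2 was even across pMo, but the list as a whole was not: its sum was 562, 1538 and 1702 CPM in cMo and 11090, 3647 and 3620 CPM in pMo, and its median was 1.34 with libraries 1 and 2 alone. The PD-L1 gene Cd274 (log2 4.74) and the costimulators Cd86 (log2 1.94) and Cd40 (log2 1.78) rose. Of 18 class I and immunoproteasome genes 10 rose (55.6%), with a median of 0.60. Cd1d1, which presents lipids, had 15.9, 34.9 and 40.2 CPM in cMo and 45.7, 85.3 and 86.9 CPM in pMo (log2 1.26 ± 0.35, edgeR adjusted p = 0.0224), a call lost without pMo 1 or pMo 2 (adjusted p up to 0.0737), while B2m (log2 1.15) and Nlrc5 (log2 1.22) rose. The intMo mean of Cd1d1 was 123 CPM, above every pMo library.

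Of 35 tested adhesion and tetraspanin genes (36 listed) 16 rose (45.7%) and 5 fell (14.3%; 8 with libraries 1 and 2 alone). Cd9, a tetraspanin, had 27.8, 20.8 and 24.9 CPM in cMo and 122, 242 and 230.2 CPM in pMo (log2 3.01 ± 0.40, edgeR adjusted p = 0.000804), with pMo 0 the lowest pMo library. The integrin genes Itga4 (log2 1.74), Itgal (log2 1.46) and Itgb2 (log2 0.94) and the ligand gene Icam1 (log2 2.06) rose, and beside Itga1 the integrin gene Itga6 (log2 -0.97) fell. Of 47 genes of the actin cytoskeleton and its regulators 16 rose (34.0%) and 6 fell (12.8%). Plek, the protein kinase C substrate pleckstrin, had 99.2, 156 and 179 CPM in cMo and 601, 793 and 861 CPM in pMo (log2 2.38 ± 0.26, edgeR adjusted p = 0.000264). Cnn3, an actin-binding calponin, had 37.3, 17.9 and 24.5 CPM in cMo and 7.600, 4.24 and 3.93 CPM in pMo (log2 -2.34 ± 0.35, edgeR adjusted p = 0.00128), whereas its relative Cnn2 rose (log2 1.11). Cttn (log2 3.65) and Rhoc (log2 3.03) rose, and Vim (log2 -1.98) and Vcl (log2 -1.59) fell.

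Guidance molecules of the semaphorin, plexin and ephrin families numbered 23 tested of 27, of which 11 rose (47.8%) and 3 fell (13%). With libraries 1 and 2 alone, 7 rose and 5 fell. Sema6d, a membrane semaphorin, had 0.432, 3.87 and 3.28 CPM in cMo and 26.8, 10.4 and 9.53 CPM in pMo (log2 2.62 ± 0.72, edgeR adjusted p = 0.0212). Its call was lost without pMo 0 (log2 1.99, adjusted p = 0.0716), the library with the highest value, and its change was 1.49 from libraries 1 and 2. Its intMo mean of 72.7 CPM lay above every pMo library. Sema6b had 59.6, 30.2 and 21.7 CPM in cMo and 12.2, 7.81 and 7.999 CPM in pMo (log2 -1.99 ± 0.37, edgeR adjusted p = 0.00351) and was lower in every pMo library. The receptor genes Plxnb1 (log2 4.03) and Ephb4 (log2 4.68) and the semaphorin gene Sema7a (log2 3.92) rose, while Nrp1 fell (log2 -0.95).

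Extracellular proteases and their inhibitors rose in 12 of 25 tested cases (48.0%, 26 listed) and fell in 4 (16.0%). Beside Adamdec1, the metalloproteinase genes Mmp14 (log2 6.22), Mmp13 (log2 5.47) and Mmp12 (log2 3.87) and the inhibitor gene Timp1 (log2 2.99) rose, of which stromal cells also make several. Slpi, an inhibitor of elastase, had 163, 77.9 and 89.5 CPM in cMo and 5.63, 8.75 and 9.97 CPM in pMo (log2 -3.76 ± 0.53, edgeR adjusted p = 0.00107). Slpi was low in all pMo libraries, as was its target Elane. Lysosome and autophagy genes rose in 11 of 36 cases (30.6%) and fell in 3 (8.3%). Cd63, a lysosomal tetraspanin, had 69.1, 26.4 and 35.96 CPM in cMo and 199, 186 and 197 CPM in pMo (log2 2.15 ± 0.42, edgeR adjusted p = 0.00476), and the cathepsin genes Ctsb (log2 1.60), Ctsk (log2 1.42) and Ctss (log2 0.98) rose. Wipi1, an early autophagy protein, had 20.6, 14.4 and 15.9 CPM in cMo and 8.13, 8.16 and 8.87 CPM in pMo (log2 -1.02 ± 0.22, edgeR adjusted p = 0.00773). For both genes no overlap between the subsets was required by the rule.

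Ion channels and calcium handling genes rose in 12 of 32 tested cases (37.5%, 33 listed) and fell in 3 (9.4%; 6 with libraries 1 and 2 alone). Trpm2, a cation channel opened by oxidative stress, had 49.3, 58.2 and 42.2 CPM in cMo and 199, 188 and 179.6 CPM in pMo (log2 1.92 ± 0.15, edgeR adjusted p = 4.54e-05). The ATP-gated channel gene P2rx4 rose (log2 1.18) and P2rx1 fell (log2 -1.36), while P2rx7 was not called (log2 0.09). Atp2b4, a calcium pump of the cell surface, had 56.4, 44.9 and 28.3 CPM in cMo and 10.97, 16.9 and 17.8 CPM in pMo (log2 -1.50 ± 0.28, edgeR adjusted p = 0.0034). Trpm2 was high and Atp2b4 low in each pMo library. In intMo the mean of Trpm2 was 222 CPM, above every pMo library.

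**Figure D5:**
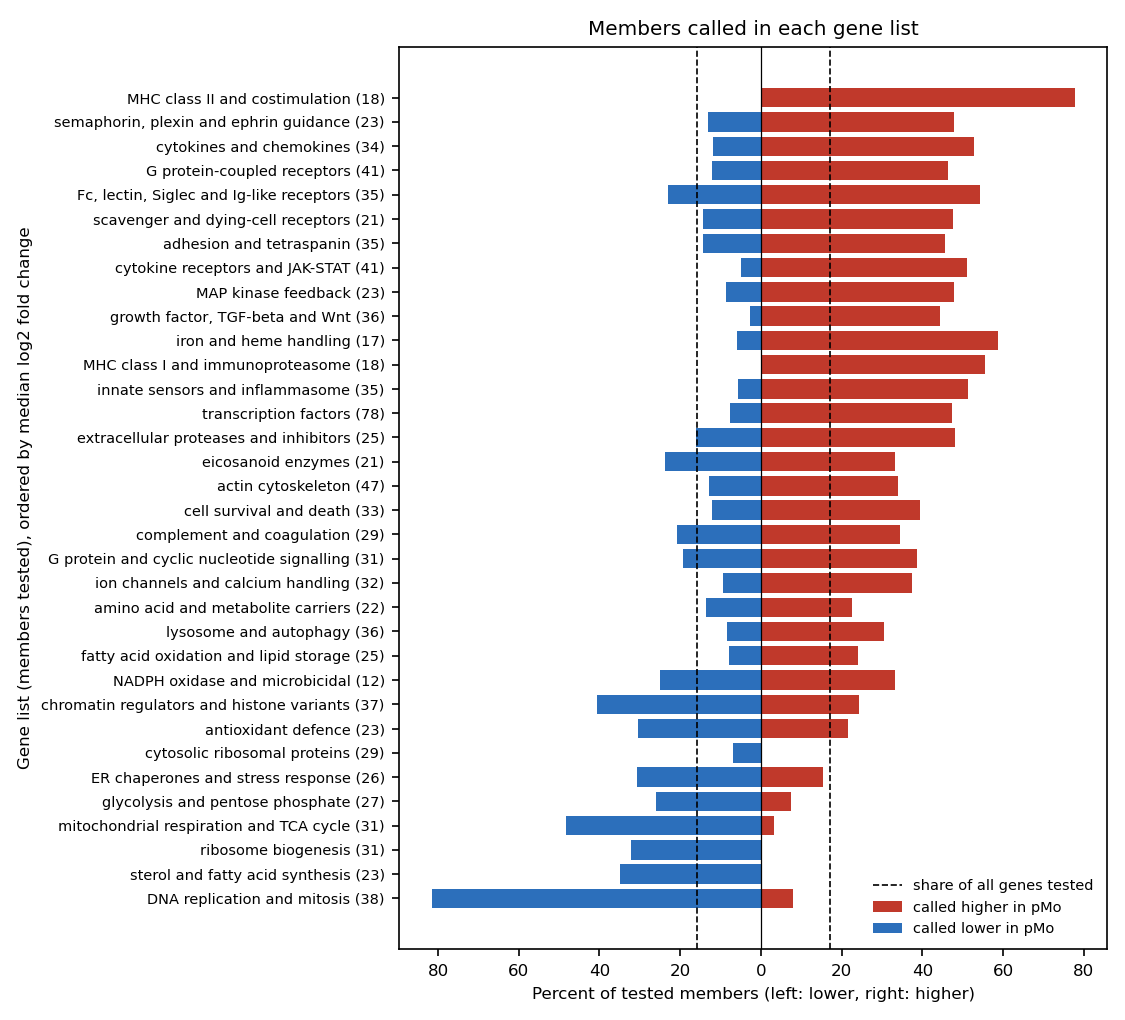
Percent of the tested members of each list of genes by function (markers of cell types are not drawn) that were called higher in pMo (red, right) or lower (blue, left), with the number tested in brackets and dashed lines at the shares of all genes (17.2% and 15.9%). MHC class II and costimulation genes (77.8% higher) and DNA replication and mitosis genes (81.6% lower) stand at the ends among the lists drawn.

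At the far ends of the ranking stood genes with 0 counts in a whole subset. Over the 3 cMo libraries 46 genes called higher had 0 counts, 40 of them with a gene name. Gjb2, the gap junction protein connexin 26, had 1858 counts over the pMo libraries, at least 686.5-fold higher than a floor of 3 counts over the cMo subset. It was found in each pMo library, at 19.97, 26.3 and 27.1 CPM. Ramp3, a partner of calcitonin-type receptors, was at least 257.9-fold higher but uneven, at 21.4, 3.26 and 3.67 CPM. The genes with the largest bounds were chosen after these were seen. Adrb1, a receptor for noradrenaline (at least 114.9-fold higher), Ptgis, the prostacyclin synthase (at least 93.9-fold higher), and Gp6, a collagen receptor known from platelets (at least 70.6-fold higher), were also at 0 counts in cMo, as were the stromal type genes Fndc1, Osr1, Lama4 and Adamts12. Over the 3 pMo libraries 9 genes called lower had 0 counts. Dntt, an enzyme of lymphoid progenitors, was at least 193.4-fold lower and had 16.7, 2.95 and 3.42 CPM in cMo, highest in cMo 0. Floors cover counting error only.

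Noncoding genes can hardly be described here. A count was found for 51 of 3302 lincRNA genes (1.5%), for 21 of 2280 antisense genes (0.9%), and for 17154 of 21547 protein coding genes (79.6%). All 20 long noncoding RNAs of the list that were in the table, Malat1 and Neat1 among them, are listed at 0 in each library and were not analysed here. Since common RNAs are among them, these exact zeros are no measure of level, and whether the set of transcripts used for counting held them is not given.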

How the data were processed

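Per the labels' protocols, RNAzol was used for RNA extraction, and NEBNext Ultra II (a stranded mRNA kit) for the libraries. The deposited values are estimated counts per gene, which the authors made with kallisto 0.46.1 against mm10, per the submitters' processing notes. No source used here gives the annotation behind the transcripts, how they were summed to genes or the strand setting, so overlapping genes, antisense genes and near-identical paralogs may share reads. Symbols and positions came from GENCODE annotation on GRCm38, matched for 46005 of 46517 gene IDs.

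Estimated counts were rounded to whole numbers. All 9 libraries (18455116 to 29985684 counts) were fitted with edgeR 4.0.16 in R 4.3.3 (quasi-likelihood F test, robust, TMM scaling, filterByExpr by subset), and pMo minus cMo was tested over 14059 genes with Benjamini-Hochberg adjustment, called at an adjusted p under 0.05. SE is the log2 change divided by the square root of F. CPM compares libraries, not genes. Alternatives were RLE and upper quartile scaling, other count filters, DESeq2 1.42.0, a replicate block, fewer libraries and each library left out.

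Genes named with library values are the 5 markers, the called extremes of each function list (mean of at least 5 CPM, no overlap between subsets), in every other list its most abundant member, and at each end of the ranking 10 genes (mean of at least 20 CPM, no overlap, named genes). Members and lists were chosen with earlier results of these data known. On simulated counts for this comparison (14059 genes, 200 changed), the test recovered 35% of the genes altered by a log2 of 1 and 76% at a log2 of 2, and 9 of 120 calls were unchanged genes. Since 4650 genes were called in the data, far more than the 200 changed there, these rates need not hold for the data. The pMo 1 and pMo 2 libraries were checked for duplication and differed beyond counting noise. RefSeq promoter windows held the 250 bases before each start.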

Additional observations from a re-analysis of the deposited data

How the results depend on the processing

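Of the 4650 calls none took the opposite sign in an alternative that tested the gene. Not tested were 345 with the filter at 1 CPM, 120 with the 6 libraries alone and 29 with libraries 1 and 2 alone. Counting such genes as not called, 2600 (55.9%) stayed called throughout and 2777 (59.7%) when each library was left out in turn. Leaving out 1 library gave 1803 to 2577 genes higher in pMo and 1335 to 2385 lower, with the lowest counts of lower genes without pMo 1 (1335) and pMo 2 (1429). DESeq2 gave 2660 and 2609, RLE scaling 2375 and 2283, upper quartile scaling 2387 and 2271, no count filter 2286 and 2006, the filter at 1 CPM 2157 and 2210, the 6 libraries alone 2114 and 2233, and libraries 1 and 2 alone 2797 and 2552. The labels do not say whether replicate numbers pair the subsets. The correlations of same-numbered cMo and pMo deviations were 0.179, -0.016 and 0.23, not all above 0.1, so the numbers were not taken as pairs, and a replicate block gave 2593 higher and 2368 lower genes.

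Of 92 named genes 84 were called, 73 in every alternative, and 3 uncalled genes changed sign. With 1 library left out, the log2 change of S100a9 ranged from -1.48 to 0.33 and that of Siglecf from -0.94 to 0.10, both highest without cMo 0. With libraries 1 and 2 alone S100a9 was at 0.81 and Cd24a at 0.14. Without the count filter Dlst, Asns, Lyz2, Sema6d, Rgs18, Mif and Ccnd2 also missed the threshold, and under the replicate block Sema6d and Adgre1 did. With only the 6 cMo and pMo libraries Dlst and Mif missed the threshold (edgeR adjusted p = 0.0622 and 0.0667). With libraries 1 and 2 alone the uncalled Pf4, Plac8 and S100a9 passed it. List counts moved both ways there, for example from 6 to 12 lower transcription factors but from 15 to 11 lower genes of respiration, and those that moved by over 1.5 times stand with the lists. The cause was not tested. Genes under the count filter were not tested at this depth.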

Other observations

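Gene families, chosen by symbol after values had been seen, were described in the same way. They can share genes with the lists above. All calls are edgeR's, and shares stand against 15.9% lower and 17.2% higher over all genes. The counts from libraries 1 and 2 alone, and sums without a family's most abundant member, were likewise added after seeing the data. Of 54 replication-dependent histone genes 33 were lower in pMo (61.1%) and none higher (median log2 -2.32). With libraries 1 and 2 alone 39 of these histone genes were lower and 1 higher. Their summed CPM was 632, 303 and 272 in cMo and 167, 181 and 171 in pMo, of which Hist1h2ap alone gave 485, 96.6 and 37.7 in cMo and 31.9, 42.7 and 36.8 in pMo. Without it the sums were 148, 206 and 234 in cMo and 135, 139 and 134 in pMo, so that cMo 0, the highest library with it, was the lowest of cMo. Copies of these genes are nearly alike, and how their reads were shared is uncertain. Most of the 33 lower histone genes had under 5 CPM in every cMo and pMo library, so their size of change is uncertain. The more abundant members split. Hist1h2ap, Hist1h4i and Hist2h2be were lower, but Hist1h1c (log2 0.45), Hist1h2bc (log2 0.28) and Hist3h2a (log2 0.47) were not called. How fully the mRNA kit captured histone transcripts was not tested. Among tubulins 8 of 13 were lower (61.5%), and the sum was 4321, 2727 and 3083 CPM in cMo and 1027, 1172 and 1100 CPM in pMo, a separation in all libraries. The exceptions were Tubb6 (log2 1.56 ± 0.22) and Tubb1, known from platelets (log2 3.71 ± 0.69), which were higher. Of 31 kinesins, the motors on microtubules, 15 were lower (48.4%) and 2 higher, and of 19 nucleoporins, the parts of the nuclear pore, 14 were lower (73.7%) and none higher (median log2 -1.1). Of 37 aminoacyl-tRNA synthetases 15 were lower (40.5%) and none higher, and of 78 mitochondrial ribosomal protein genes 23 were lower (29.5%) and 1 higher; with libraries 1 and 2 alone the counts were 17 and 1, and 20 and 3.

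Interferon-inducible families were counted as well. Of 10 guanylate-binding protein genes 7 were higher in pMo (70%) and none lower (median log2 2.22), among them Gbp2b (log2 4.90 ± 0.62) and Gbp8 (log2 3.15 ± 0.51), and the family summed to 98.8, 320.0 and 367 CPM in cMo and 768, 1073 and 1157 CPM in pMo. Of 21 Ifit, Ifitm and Oas genes only Ifitm2 was called (log2 0.68 ± 0.15), although the median was 0.99; with libraries 1 and 2 alone 15 were higher and none lower. Their sum was 1317, 1849 and 2023 CPM in cMo and 1954, 3601 and 3584 CPM in pMo, so the subsets overlapped. Near-identical members of both families can share reads. Collagens were higher in 19 of 29 cases (65.5%) and lower in 1. Their sums were 75.7, 44.1 and 35.5 CPM in cMo and 634, 337 and 302 CPM in pMo. Stromal sums were 22.5 to 33.6 CPM in cMo and 335 to 621 CPM in pMo. The highest log2 change was 6.25 in both sets, so they can share genes and are not separate observations.

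Some genes with large changes are neighbours. Itgax (log2 6.19) and Itgad (log2 6.75) lie side by side on chromosome 7, Prtn3 (log2 -4.85) and Elane (log2 -4.55) on chromosome 10, and Mgl2 (log2 -5.04) and Clec10a (log2 -2.69) on chromosome 11. Whether neighbours differ together more often than other genes was not tested.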
